A study of Mus musculus with 71 samples.

Results

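The genes Fos, Fosb, Fosl1, Fosl2, Jun, Junb and Jund encode the Fos and Jun subunits of the transcription factor AP-1. They were measured by 11 of 45037 probe sets, taken as every probe set to which the platform annotation gives 1 of these 7 symbols. Fos, Fosb and Junb had 1 probe set each, and Fosl1, Fosl2, Jun and Jund had 2 each. The arrays were Affymetrix expression arrays hybridised with RNA from the whole brain of male mice aged 12 to 13 weeks. The mice were from 3 inbred strains (C57BL/6J, DBA/2J and AKR/J) and had either been sleep-deprived for 6 h up to sacrifice or served as home-cage controls. Sacrifice took place at ZT0, ZT6, ZT12 or ZT18, where ZT counts hours from light onset. Each array carried equal amounts of RNA from a pool of 3 mice, and 71 arrays filled the 24 groups of strain, condition and time, with 3 arrays in 23 groups and 2 in sleep-deprived AKR/J mice at ZT18. The control in every comparison had the same strain and time of sacrifice, unless stated.

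Fos proteins bind DNA mainly as partners of Jun proteins, whereas Jun proteins can also pair among themselves, and the resulting AP-1 dimers act on genes that carry AP-1 sites. Fos, Fosb and Junb are immediate early genes, which neurons transcribe within minutes of strong synaptic or growth factor input without new protein synthesis, and Fos protein is a common marker of recently active neurons. Jund is present at a steady level in many cells, and Fosl1 and Fosl2 encode the Fos-related antigens Fra-1 and Fra-2, which usually follow the early wave.

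After sleep deprivation Fos RNA was higher by 1.73-fold and 1 of 2 Fosl2 probe sets by 1.78-fold, and Fosb and Junb were higher by 1.24-fold and 1.21-fold, over all strains and times. One probe set each of Jun and Jund was lower by less than 0.1 log2 units, and neither Fosl1 probe set changed at the threshold. Values are log2 signals, so that a difference of 1 is a doubling. Differences are given with their standard error (SE) from a limma model of all 71 arrays, and p-values are adjusted by Benjamini-Hochberg over the 45037 probe sets. Pairs of probe sets, means of the probe sets of a gene and the filter on signal level were fitted separately. Their p-values are adjusted over the pairs, genes or probe sets of that fit. A probe set is called at an adjusted p under 0.05. Of the 11 probe sets 4 were called higher, against 8.31% of all probe sets, and 2 were called lower, against 9.00%.

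The array levels bear on how far the members can be read. Fos (1423100_at, mean 8.77 over all arrays), Fosl2 (1437247_at, 7.44; 1422931_at, 5.79), Jun (1448694_at, 8.40; 1417409_at, 8.37), Junb (1415899_at, 6.46) and Jund 1449117_at (9.81) lay above the median probe set, at 5.68. Fosb (1422134_at, 4.40), Fosl1 (1417487_at, 4.85; 1417488_at, 3.96) and Jund 1440265_at (3.88) lay below it. The deposited values carry no detection calls, so no lower limit of detection can be given for these 4. Levels of different probe sets are not compared as amounts of RNA. The residual SD of Fos, 0.210, was larger than the median of 0.118 over all probe sets, and that of Jun 1448694_at was smaller, 0.0865.

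Array medians lay between 5.65 and 5.71, and all arrays correlated at 0.986 or more. The 10 neuron and 8 astrocyte markers had mean levels of 8.43 or more, well above the median probe set. Over all named genes, read on the brightest probe set of each, 9.95% were called higher and 12.2% lower after sleep deprivation. Of 7 oligodendrocyte markers 4 were lower and none higher, with a median of -0.07 and array means of 10.42 to 10.97 in controls and 10.35 to 10.76 after sleep deprivation. Of 6 endothelial markers 1 was higher and 2 lower, among them Slco1a4 (-0.25 ± 0.02, adjusted p = 1.1e-14), with array means of 7.36 to 7.77 and 7.40 to 7.74. Of 6 meningeal markers 2 were lower and none higher (7.10 to 7.49 and 6.91 to 7.49), and of 8 microglia markers 2 were higher and 1 lower (7.30 to 7.61 and 7.22 to 7.70). Of 10 neuron markers 2 rose and 1 fell, with array means of 11.40 to 11.62 and 11.44 to 11.63, and no astrocyte marker was called. The mean over 6 pituitary hormone genes on each array ranged from 5.20 to 9.99 in controls and from 5.17 to 9.67 after sleep deprivation. The part of these cell types in the results was not tested, and in whole-brain RNA fewer cells of a type and less RNA per cell cannot be told apart. Poly-A spike-in probe sets were low on 6 arrays, 3 control and 3 sleep-deprived, whose spike-in deviation was -0.413 or lower against -0.144 or higher elsewhere. They were replicate 3 of AKR/J control ZT0 and ZT6, and of C57BL/6J control and sleep-deprived ZT0. Replicates 1 and 3 of sleep-deprived C57BL/6J ZT6 were the others, with no low control array in that strain and time. Low spike-in signal is thus partly confounded with condition there. The labels do not say whether these arrays form a batch. Calls that were lost without these arrays are named with their values beside the result.

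**Figure D1:**
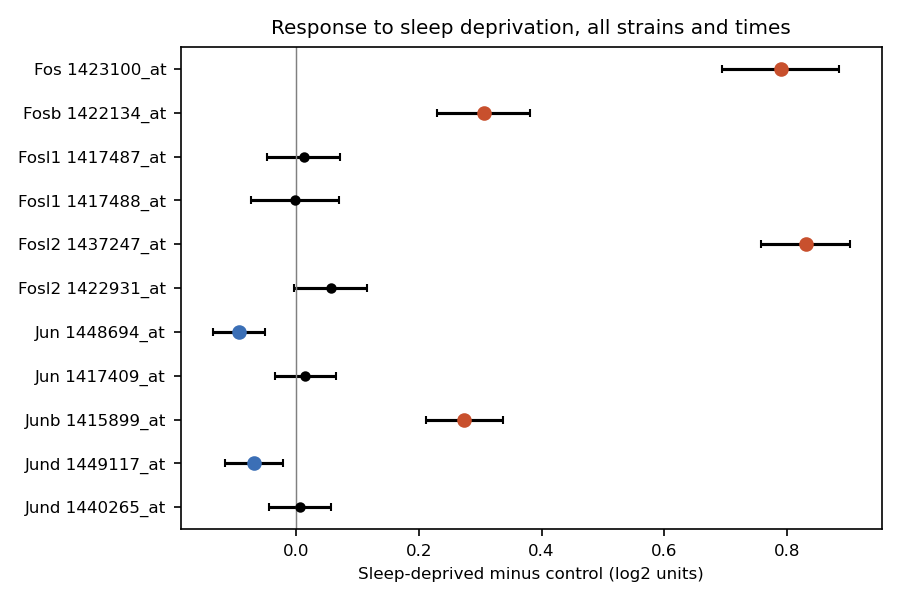
Response of the 11 probe sets to sleep deprivation over all strains and times, as the log2 difference sleep-deprived minus control with its 95% confidence interval from the model. Red points are called higher, blue points called lower and black points not called; Fos and Fosl2 1437247_at stand at 0.79 and 0.83, and the other 9 lie between -0.09 and 0.31.

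To show the start regions of the responding genes, the 250 bases before the RefSeq transcription start of the 4 genes called higher are printed 5′ to 3′ on the gene's strand (RefSeq, assembly GRCm38.p6). They lie at chr12:85473640-85473889 (plus strand) for Fos, chr7:19310046-19310295 (minus strand) for Fosb, chr8:84978749-84978998 (minus strand) for Junb and chr5:32136222-32136471 (plus strand) for Fosl2. Capitals mark matches to TGACG, the core of the cyclic AMP response element, searched on both strands, and to TATAAA on the gene's strand, the box bound by the TATA-binding protein.
Fos: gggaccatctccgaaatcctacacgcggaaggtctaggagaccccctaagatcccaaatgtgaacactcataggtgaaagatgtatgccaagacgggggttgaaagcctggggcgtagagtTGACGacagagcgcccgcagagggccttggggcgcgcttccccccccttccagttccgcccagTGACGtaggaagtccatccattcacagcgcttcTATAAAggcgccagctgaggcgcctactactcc
Fosb: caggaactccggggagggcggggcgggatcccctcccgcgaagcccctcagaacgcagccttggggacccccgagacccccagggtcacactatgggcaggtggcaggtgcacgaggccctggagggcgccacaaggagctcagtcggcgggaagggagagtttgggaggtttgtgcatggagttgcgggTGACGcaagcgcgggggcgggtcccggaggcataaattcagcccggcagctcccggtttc
Junb: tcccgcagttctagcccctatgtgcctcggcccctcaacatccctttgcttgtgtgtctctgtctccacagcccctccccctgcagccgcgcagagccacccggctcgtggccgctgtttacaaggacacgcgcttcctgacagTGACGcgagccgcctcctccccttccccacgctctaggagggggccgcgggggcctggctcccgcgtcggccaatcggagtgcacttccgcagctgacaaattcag
Fosl2: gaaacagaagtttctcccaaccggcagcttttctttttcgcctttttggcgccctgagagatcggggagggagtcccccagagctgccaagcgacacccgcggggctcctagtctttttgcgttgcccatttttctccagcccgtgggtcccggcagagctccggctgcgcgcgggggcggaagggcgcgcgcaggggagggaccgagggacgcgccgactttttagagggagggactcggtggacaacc
Fos held TGACG at 129 to 125 and at 66 to 62 bases before the start, and TATAAA at 33 to 28. Fosb held TGACG at 60 to 56 and Junb at 106 to 102 bases before the start. Neither motif occurred in the windows of Fosl2, Jun and Jund. TGACG occurred in 17.8% of 32851 promoters of the same length and TATAAA in 7.59%. The AP-1 site TGANTCA, on both strands, and the CArG box bound by serum response factor occurred in none of the windows of the 6 members with a RefSeq entry, against 6.75% and 1.47% of all promoters. Bases further than 250 before the start were not searched, so these motifs may lie there. With 6 windows and shares this small, the absence is not read as a trait of the members. These are matches of letters and not measured binding.

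Fos, the prototype of the family, had control levels that depended on the time of day. Among 9 control arrays per time, the lowest, median and highest Fos levels were 8.83, 9.17 and 9.32 at ZT0 and 7.28, 7.54 and 8.31 at ZT6. They were 7.31, 7.83 and 7.97 at ZT12 and 8.65, 9.02 and 9.45 at ZT18. The arrays of ZT6 and ZT12, from the middle and the end of the light phase, were all below every array of ZT0 and ZT18.

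After sleep deprivation the lowest, median and highest Fos levels were 9.15, 9.40 and 9.84 at ZT0 and 8.72, 9.07 and 9.24 at ZT6. They were 8.75, 8.92 and 9.32 at ZT12, and 8.64, 9.13 and 9.84 over the 8 arrays of ZT18. At ZT6 and ZT12 every sleep-deprived array was above every control array, whereas at ZT0 and ZT18 the ranges of the conditions overlapped.

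Sleep deprivation raised Fos by 1.38 ± 0.09 log2 units at ZT6 (2.61-fold, adjusted p = 3.61e-17) and by 1.25 ± 0.09 at ZT12 (2.37-fold, adjusted p = 1.97e-15). The difference was 0.32 ± 0.09 at ZT0 (adjusted p = 0.0596) and 0.21 ± 0.10 at ZT18 (adjusted p = 0.847), neither of them called. The response itself differed between times by an F test of time by sleep deprivation (adjusted p = 2.12e-10), a test called for 3 of 11 members against 1.40% of all probe sets. At ZT0 the Fos call depended on the setting, with an adjusted p that ran from 0.00795 to 0.133 over the alternative settings. The adjusted p was 0.0461 under array weights and 0.00795 when only the groups compared entered the fit. The ZT0 difference of Fos also passed without any 1 of 3 arrays, at 0.0318 without replicate 1 of DBA/2J control ZT6.

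Fosl2, which encodes Fra-2, showed the clearest separation of the conditions. On its brighter probe set, 1437247_at, the lowest, median and highest control levels were 7.08, 7.24 and 7.71 at ZT0, and 6.50, 6.67 and 7.06 at ZT6. They were 6.24, 6.65 and 6.91 at ZT12, and 7.09, 7.49 and 7.70 at ZT18. Controls were thus low at the same times as for Fos, with ZT6 and ZT12 arrays all below those of ZT0 and ZT18.

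In sleep-deprived mice Fosl2 1437247_at had a lowest, median and highest level of 7.75, 7.88 and 8.04 at ZT0 and of 7.77, 7.90 and 8.15 at ZT6. The values were 7.58, 7.81 and 8.11 at ZT12 and 7.46, 7.84 and 7.99 at ZT18. The ranges of the conditions were separate at ZT0, ZT6 and ZT12 and overlapped at ZT18.

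Fosl2 rose by 0.57 ± 0.07 at ZT0 (adjusted p = 1.66e-07), 1.18 ± 0.07 at ZT6 (2.27-fold, adjusted p = 3.21e-19), 1.22 ± 0.07 at ZT12 (2.33-fold, adjusted p = 1.05e-19) and 0.35 ± 0.07 at ZT18 (adjusted p = 0.0337). The F test of time by sleep deprivation gave an adjusted p of 1.81e-09. Over all probe sets, Fosl2 had the 9th smallest p of the overall comparison and Fos the 48th. The ZT18 call was lost without any 1 of 12 arrays, with an adjusted p of 0.253 without replicate 1 of sleep-deprived AKR/J ZT18. It was also lost when only the groups compared entered the fit (adjusted p = 0.0549).

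**Figure D2:**
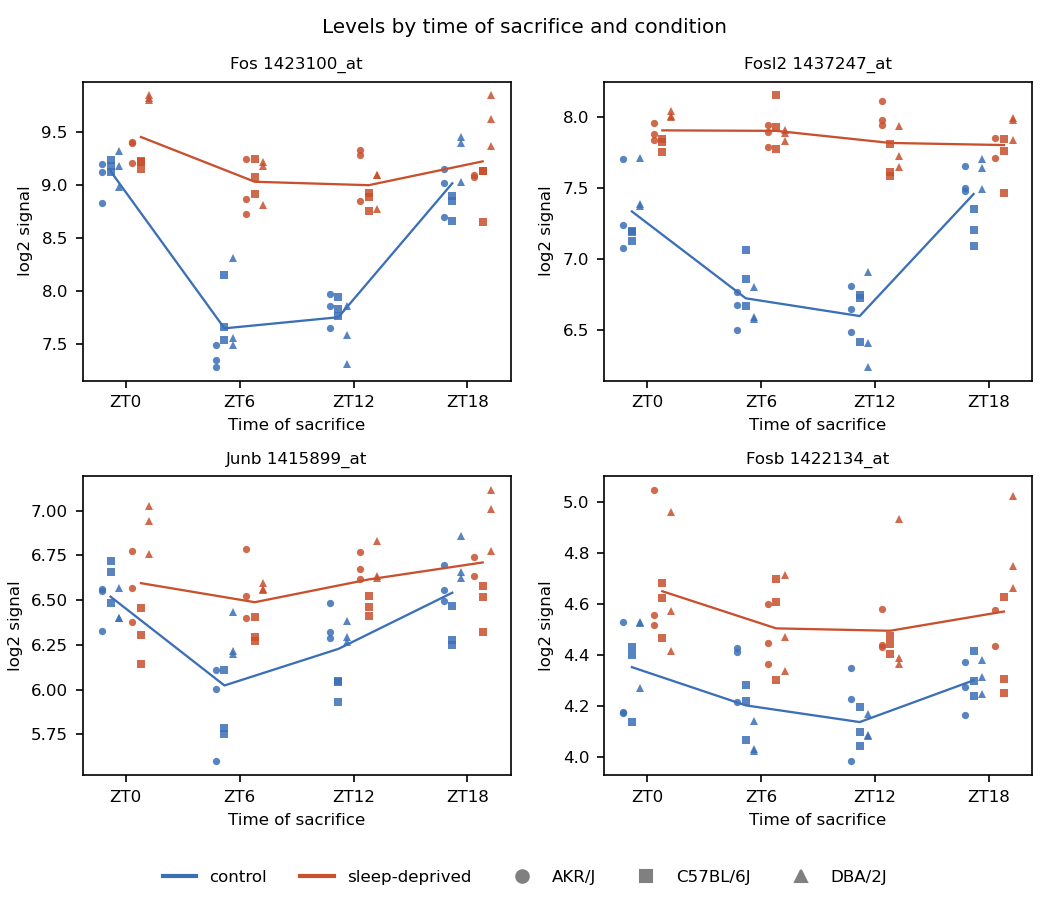
Log2 signal of Fos, Fosl2 1437247_at, Junb and Fosb on each array, by time of sacrifice, with controls in blue and sleep-deprived mice in red, and the strains as circles (AKR/J), squares (C57BL/6J) and triangles (DBA/2J). Lines join the means of the 3 strain means; for Fos they run from 7.64 to 9.13 in controls and from 8.99 to 9.45 in sleep-deprived mice.

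The other Fosl2 probe set, 1422931_at, did not follow the first. Its lowest, median and highest levels were 5.49, 5.78 and 5.99 in the 36 controls and 5.61, 5.80 and 6.16 in the 35 sleep-deprived arrays, so the conditions overlapped nearly throughout. The difference was 0.06 ± 0.03 (adjusted p = 0.209), with a 95% interval of -0.00 to 0.12. The responses of the Fosl2 probe sets, compared within arrays, differed by 0.77 ± 0.05 (adjusted p = 1.66e-18), where 11.2% of 30372 such pairs over all genes were called. Averaged over both probe sets the Fosl2 response was 0.44 (adjusted p = 6.07e-23), and at ZT18 0.18 (adjusted p = 0.0995).

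Junb encodes a Jun protein that is induced together with Fos in many cells. Its lowest, median and highest control levels were 6.33, 6.55 and 6.72 at ZT0, 5.60, 6.11 and 6.43 at ZT6, 5.93, 6.29 and 6.48 at ZT12, and 6.25, 6.55 and 6.86 at ZT18. In sleep-deprived mice they were 6.14, 6.57 and 7.03, then 6.27, 6.52 and 6.79, then 6.41, 6.63 and 6.83, and 6.32, 6.69 and 7.12 at the same times. The ranges of the conditions overlapped at every time.

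Junb rose by 0.46 ± 0.06 at ZT6 (1.38-fold, adjusted p = 1.11e-07) and by 0.39 ± 0.06 at ZT12 (1.31-fold, adjusted p = 6.06e-06). It differed by 0.08 ± 0.06 at ZT0 (adjusted p = 0.661) and by 0.17 ± 0.06 at ZT18 (adjusted p = 0.637). The response differed between times (adjusted p = 0.0136).

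Fosb, which also encodes a truncated and long-lived splice form in neurons, was measured at low signal. Its lowest, median and highest levels were 3.98, 4.23 and 4.53 in controls and 4.25, 4.52 and 5.05 after sleep deprivation. The ranges overlapped, with the median sleep-deprived array close to the highest control array. The difference was 0.30 ± 0.08 at ZT0 (adjusted p = 0.0215), 0.30 ± 0.08 at ZT6 (adjusted p = 0.00384), 0.36 ± 0.08 at ZT12 (adjusted p = 0.000538) and 0.27 ± 0.08 at ZT18 (adjusted p = 0.298). The F test of time by sleep deprivation was not called for Fosb (adjusted p = 0.974), and the 4 values spanned 0.09 log2 units.

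Of the 11 probe sets 2 were called at ZT0, 4 at ZT6, 4 at ZT12 and 1 at ZT18, all of them higher, where 1.71%, 10.4%, 9.75% and 0.0777% of all probe sets were called. Without the 6 arrays low in spike-in signal, the Fosb difference was 0.29 at ZT0 (adjusted p = 0.0665) and 0.20 at ZT6 (adjusted p = 0.198). The ZT0 call of Fosb was also lost without any 1 of 6 arrays, at 0.0866 without replicate 1 of sleep-deprived DBA/2J ZT0. When only the groups compared entered the fit, it was lost as well (adjusted p = 0.178).

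Jun encodes the classical partner of Fos in AP-1, and neither of its probe sets was called higher. On probe set 1448694_at the lowest, median and highest levels were 8.19, 8.43 and 8.76 in controls and 8.09, 8.37 and 8.51 in sleep-deprived mice. On 1417409_at they were 8.06, 8.36 and 8.78 and 8.05, 8.36 and 8.69. The conditions overlapped widely on both.

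Over all strains and times Jun 1448694_at fell by 0.09 ± 0.02 log2 units (adjusted p = 0.000896), and 1417409_at differed by 0.02 ± 0.02 (adjusted p = 0.77, 95% interval -0.03 to 0.07). Within arrays the responses of the Jun probe sets differed by -0.11 ± 0.03 (adjusted p = 0.00294). The mean of both Jun probe sets differed by -0.04, which was not called (adjusted p = 0.15). No Jun probe set was called at a single time in the main fit. At ZT6, 1448694_at differed by -0.10 (adjusted p = 0.114). With the arrays low in spike-in signal as a block it was called lower there (-0.12, adjusted p = 0.0299).

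Jund 1449117_at, the probe set with the highest signal of the 11, had lowest, median and highest levels of 9.61, 9.84 and 10.06 in controls and of 9.33, 9.80 and 10.08 in sleep-deprived mice. It fell by 0.07 ± 0.02 (adjusted p = 0.0332), a change within the spread of both conditions. The call was lost without any 1 of 5 arrays, at 0.0885 without replicate 1 of sleep-deprived AKR/J ZT18, without the 6 spike-in arrays (-0.07, adjusted p = 0.0716) and for the mean of both Jund probe sets (-0.03, adjusted p = 0.181). At ZT12 Jund 1449117_at differed by -0.12 (adjusted p = 0.0925), which was called when only the groups compared entered the fit (adjusted p = 0.0433). Jund 1440265_at differed by 0.01 ± 0.03 (adjusted p = 0.906).

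Fosl1, the gene of Fra-1, stayed at low signal on both probe sets. Levels of 1417487_at ran from 4.58 to 5.13 in controls and from 4.44 to 5.08 after sleep deprivation, and those of 1417488_at from 3.64 to 4.28 and from 3.62 to 4.47. The differences were 0.01 ± 0.03 (adjusted p = 0.85, 95% interval -0.05 to 0.07) and -0.00 ± 0.04 (adjusted p = 0.994, 95% interval -0.07 to 0.07). Neither probe set was called in any comparison tested here.

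Differences between times of sacrifice were tested in the controls. The labels do not give the sleep and waking of these undisturbed mice, so time of day and prior waking cannot be told apart here. An F test of the 4 times was called for 4 of 11 probe sets, against 11.7% of all: Fos (adjusted p = 3.34e-22), Fosl2 1437247_at (adjusted p = 5.78e-16), Junb (adjusted p = 1.1e-09) and Jun 1417409_at (adjusted p = 0.00591). The mean Fos level in controls fell by 1.48 ± 0.09 from ZT0 to ZT6 (adjusted p = 5.57e-18) and was higher by 1.26 ± 0.09 at ZT18 than at ZT12 (adjusted p = 1.82e-15). For Fosl2 these differences were -0.61 ± 0.07 and 0.86 ± 0.07, and for Junb -0.50 ± 0.06 and 0.31 ± 0.06. From ZT0 to ZT6, 4 members fell, where 4.01% of all probe sets were called, and from ZT0 to ZT12 3 fell, where 5.86% were. Between ZT18 and ZT6, 5 members were called, where 9.64% of all were, and between ZT18 and ZT12 3 were, where 7.27% were.

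The mean control level of Jun 1417409_at was also lower at ZT6 and ZT12 than at ZT0 and ZT18, over a smaller range. It was 8.44 at ZT0, 8.26 at ZT6, 8.30 at ZT12 and 8.44 at ZT18. In C57BL/6J alone the means were 8.31 at ZT6 and 8.30 at ZT18. Over all strains, ZT12 minus ZT0 (-0.14, adjusted p = 0.0785) and ZT18 minus ZT12 (0.14, adjusted p = 0.0637) were not called. Both were called when only probe sets above the median level were tested (adjusted p = 0.0417 and 0.0332). The fall from ZT0 to ZT6, -0.18 ± 0.05 (adjusted p = 0.0243), was lost without the 6 spike-in arrays (-0.13, adjusted p = 0.128) and without replicate 3 of AKR/J control ZT0 (adjusted p = 0.116). Jund 1449117_at ran the other way between ZT6 and ZT18, from 9.93 to 9.79, a fall called in this pair (adjusted p = 0.0366) but lost without any 1 of 11 arrays, without the 6 spike-in arrays (-0.14, adjusted p = 0.0709) and for the mean of both Jund probe sets (-0.06, adjusted p = 0.245), and not called by the F test of the 4 times (adjusted p = 0.092).

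In sleep-deprived mice the F test of time was called for 1 of 11, Fos (adjusted p = 0.00426), where 1.42% of all probe sets were called. Mean Fos levels were 9.45 at ZT0, 9.03 at ZT6, 8.99 at ZT12 and 9.22 at ZT18, and Fos at ZT12 was below ZT0 by 0.45 ± 0.09 (adjusted p = 0.00236), the single member called in this pair against 1.05% of all. Fosl2 1437247_at stood at 7.91, 7.90, 7.82 and 7.80 at these times, a range of 0.10 that was not called (adjusted p = 0.759), against a range of 0.86 in controls. With the spike-in arrays as a block, or without them, Jun 1417409_at was called as well (adjusted p = 0.00501 and 0.0267). The Fos difference ZT6 minus ZT0 in sleep-deprived mice, -0.42, was not called (adjusted p = 0.06). It was called with array weights, with gene means and with only probe sets above the median level (adjusted p = 0.0117, 0.041 and 0.0319).

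Ordering the 8 combinations of condition and time places these levels side by side. For Fos the order from the top was sleep-deprived ZT0 and ZT18, control ZT0, sleep-deprived ZT6, control ZT18, sleep-deprived ZT12, control ZT12 and control ZT6. The 1 step between neighbours that was called was that from sleep-deprived ZT12 to control ZT12. For Fosl2 1437247_at all 4 sleep-deprived levels lay above all 4 control levels, and the steps from sleep-deprived ZT18 to control ZT18 and from control ZT0 to control ZT6 (0.61, adjusted p = 1.33e-08) were called. For Fosb too all 4 sleep-deprived levels lay on top, with no step between neighbours called.

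Mice kept awake in the light phase were also set against controls taken in the dark phase. Fos at sleep-deprived ZT6 differed from control ZT18 by 0.01 ± 0.09 (adjusted p = 0.977), with a 95% interval of -0.17 to 0.20. Junb differed by -0.05 ± 0.06 (adjusted p = 0.803, 95% interval -0.18 to 0.07). Fosl2 1437247_at was higher by 0.45 ± 0.07 after sleep deprivation at ZT6 (adjusted p = 9.4e-05), the 1 call among 11 members, where 0.879% of all probe sets were called. The 9 sleep-deprived Fosl2 values at ZT6 began at 7.77 and the 9 control values at ZT18 ended at 7.70, so the groups did not overlap. Jun 1417409_at was lower by 0.16 ± 0.05 (adjusted p = 0.0968), and by 0.22 without the 6 spike-in arrays (adjusted p = 0.0156).

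Each strain was examined over its 4 times. Fos rose by 0.83 ± 0.08 in AKR/J, 0.62 ± 0.08 in C57BL/6J and 0.92 ± 0.08 in DBA/2J, with an adjusted p of 9.59e-11, 1.41e-07 and 9.96e-13. Fosl2 1437247_at rose by 0.85 ± 0.06, 0.81 ± 0.06 and 0.83 ± 0.06 in the same strains, the highest of the 3 adjusted p being 1.26e-14. Fosb rose by 0.27 ± 0.07, 0.25 ± 0.07 and 0.40 ± 0.07. Junb rose by 0.30 ± 0.06, 0.18 ± 0.05 and 0.34 ± 0.05. Without the 6 spike-in arrays the Fosb call in C57BL/6J was lost (0.21, adjusted p = 0.137). The Junb call in C57BL/6J (adjusted p = 0.0286) was lost without any 1 of 9 arrays, at 0.0686 without replicate 1 of its control ZT0.

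In AKR/J 5 members were called, where 5.85% of all probe sets were, and in C57BL/6J and DBA/2J 4 each, where 6.45% and 6.90% were. The fifth in AKR/J was Jun 1448694_at, which fell by 0.16 ± 0.04 (adjusted p = 0.00306) and differed by -0.07 ± 0.04 in C57BL/6J and -0.04 ± 0.04 in DBA/2J (adjusted p = 0.318 and 0.626). The mean of both Jun probe sets in AKR/J was not called (-0.06, adjusted p = 0.322). The F test of strain by sleep deprivation by limma called 0 of 11 members and 0.0222% of all probe sets. At an unadjusted p under 0.05 it gave 1 member, Fos (limma adjusted p = 0.659). The share of all probe sets at that unadjusted p was not counted.

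**Figure D3:**
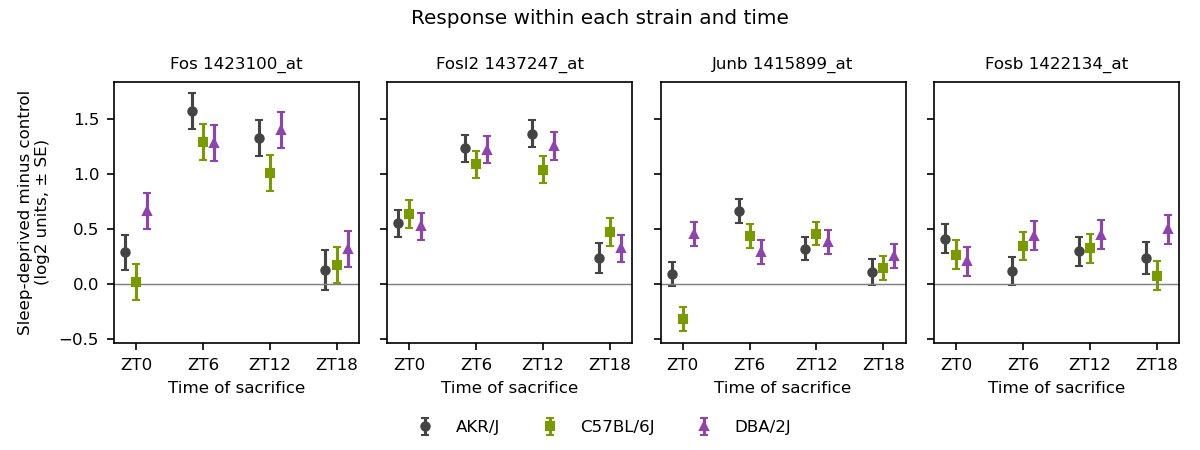
Log2 difference sleep-deprived minus control within each strain and time for Fos, Fosl2 1437247_at, Junb and Fosb, with the SE of the model as bars (2 or 3 arrays a group). Fos and Fosl2 lie above 1 at ZT6 and ZT12 in all 3 strains, and Junb in C57BL/6J at ZT0 lies at -0.32.

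Within the 12 combinations of strain and time, the mean of the sleep-deprived Fos arrays was above that of the controls in 12, with no overlap of single arrays in 8. Over all probe sets and these 12 combinations, 8.18% of comparisons had all sleep-deprived arrays above all controls and 8.47% all below. Fos responses ran from 0.02 ± 0.16 in C57BL/6J at ZT0 to 1.57 ± 0.16 in AKR/J at ZT6 (adjusted p = 6.23e-10). In C57BL/6J at ZT0 the 3 control Fos values were 9.23, 9.18 and 9.12 and the 3 sleep-deprived values 9.21, 9.22 and 9.15. These overlapped almost wholly. In DBA/2J at ZT0 the control values were 8.98, 9.32 and 9.17 and the sleep-deprived values 9.84, 9.80 and 9.82, which did not overlap (0.66 ± 0.16, adjusted p = 0.0786). In AKR/J at ZT6 the control values were 7.28, 7.35 and 7.48 and the sleep-deprived values 9.24, 8.86 and 8.72.

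Fosl2 1437247_at was higher without overlap in 12 of 12 combinations, from 0.24 ± 0.14 in AKR/J at ZT18 to 1.37 ± 0.12 in AKR/J at ZT12 (adjusted p = 9.37e-12). In AKR/J at ZT18, where 2 sleep-deprived pools were measured, the Fosl2 values were 7.50, 7.66 and 7.48 in controls and 7.85 and 7.71 after sleep deprivation. In AKR/J at ZT12 they were 6.48, 6.65 and 6.81 in controls and 8.11, 7.98 and 7.95 after sleep deprivation.

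Junb was higher in 11 of 12 combinations, without overlap in 7. The exception was C57BL/6J at ZT0, where controls gave 6.49, 6.72 and 6.66 and sleep-deprived pools 6.30, 6.46 and 6.14. The Junb groups there did not overlap, with the sleep-deprived pools lower by 0.32 ± 0.11 (adjusted p = 0.306, not called). At the same time in DBA/2J the Junb values were 6.40, 6.57 and 6.40 in controls and 6.94, 7.03 and 6.76 after sleep deprivation (0.45 ± 0.11, adjusted p = 0.0664). Fosb was higher in 12 of 12 and without overlap in 8, and its largest difference was 0.50 ± 0.13 in DBA/2J at ZT18 (adjusted p = 0.258). Jun 1448694_at and Jund 1449117_at were each lower in 11 of 12, without overlap in 6 and 4, and were called in none. Over all probe sets 8.18% of such comparisons were higher without overlap and 8.47% lower.

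Calls in these 12 combinations numbered 20 of 132, all higher: 6 for Fos, 8 for Fosl2 1437247_at, 4 for Junb and 2 for Fosb. At ZT0 the AKR/J, C57BL/6J and DBA/2J comparisons called 1, 1 and 0 of 11 members and 0.215%, 0.331% and 0.111% of all probe sets. At ZT6 they called 3 members each and 2.58%, 7.47% and 3.63% of all. At ZT12 they called 2, 3 and 4 members and 1.71%, 2.14% and 2.94% of all. At ZT18 no member was called by limma, and 0%, 0.00222% and 0.00444% of all probe sets were called. At an unadjusted p under 0.05 there were 0, 1 and 3 members. The DBA/2J comparison at ZT0, with no call either, had 3 members at an unadjusted p under 0.05. Shares of all probe sets at that unadjusted p were not counted, so these counts are not read as a trait of the members. In DBA/2J at ZT18 the unadjusted limma p of Fos, 0.0536, ranked 3679 among 45037 probe sets. The Fosb calls in DBA/2J at ZT6 and ZT12 were lost without replicate 2 of the sleep-deprived group at that time (adjusted p = 0.297 and 0.43).

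Several of the 20 calls depended on the setting. When only the groups compared entered the fit, 13 calls were made, and both calls at ZT0, those of Fosl2 1437247_at, were among those lost. In AKR/J at ZT0 Fosl2 was higher by 0.55 ± 0.12 (adjusted p = 0.034), which became 0.587 in that fit, 0.0851 with array weights, 0.0533 after quantile normalization and 0.162 without the 6 spike-in arrays. In C57BL/6J at ZT0 it was higher by 0.64 ± 0.12 (adjusted p = 0.00492), which became 0.0987 with only the groups compared and 0.0721 without the 6 arrays. The Junb calls at ZT6 in AKR/J and C57BL/6J and at ZT12 in DBA/2J had an adjusted p of 0.0949, 0.0741 and 0.0791 with only the groups compared. Without the 6 arrays the Junb call in C57BL/6J at ZT6 was lost, with a difference of 0.52 that rests on a single sleep-deprived array. The Fosb calls in DBA/2J had 0.058 at ZT6 and 0.185 at ZT12 with only the groups compared, and the first had 0.0515 with pituitary hormone level as a covariate. Leaving out 1 array also ended the Fosl2 call in AKR/J at ZT0 (0.215) and the Junb calls in C57BL/6J at ZT6 (0.0523) and ZT12 (0.0688) and in DBA/2J at ZT12 (0.2). Calls were also gained in DBA/2J at ZT0, where the main fit gave none. There Fosl2 1437247_at differed by 0.53 ± 0.12 (adjusted p = 0.0622). It had 0.0355 with array weights and 0.0323 with only probe sets above the median level. Under the same settings Junb had 0.0292 and 0.0341, and Fos 0.0461 and 0.0453. Elsewhere array weights gained Fosb in C57BL/6J at ZT6 (0.0285) and Junb in AKR/J at ZT12 (0.0379). With only the groups compared none of these was called.

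Strain differences among controls were tested over the 4 times, and 5 of 11 probe sets were called by an F test, against 32.8% of all probe sets. These were Jun 1448694_at (adjusted p = 0.000102), Jun 1417409_at (adjusted p = 0.0241), Junb (adjusted p = 0.00175), Jund 1449117_at (adjusted p = 0.00188) and Fosl2 1422931_at (adjusted p = 0.0277). Fos, Fosb and Fosl2 1437247_at were not called (adjusted p = 0.3, 0.852 and 0.421). Sequence differences between strains under a probe can change a signal without a change in RNA, and their part was not tested.

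Jun 1448694_at in controls had lowest, median and highest levels of 8.45, 8.53 and 8.76 in AKR/J, 8.19, 8.40 and 8.48 in C57BL/6J and 8.30, 8.40 and 8.59 in DBA/2J. AKR/J was the high strain, and C57BL/6J and DBA/2J were lower by 0.17 ± 0.04 (adjusted p = 0.000158) and by 0.16 ± 0.04 (adjusted p = 0.000849). For Jund 1449117_at the control values were 9.77, 9.86 and 10.06 in AKR/J, 9.61, 9.75 and 9.87 in C57BL/6J and 9.79, 9.91 and 9.995 in DBA/2J. C57BL/6J was the low strain for Jund, by 0.13 ± 0.04 against AKR/J (adjusted p = 0.0101) and by 0.16 ± 0.04 against DBA/2J (adjusted p = 0.00148). Junb in controls was higher in DBA/2J than in C57BL/6J by 0.23 ± 0.05 (adjusted p = 0.000611), and Fosl2 1422931_at by 0.16 ± 0.05 (adjusted p = 0.0119).

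Calls among the members were 3 for C57BL/6J against AKR/J, 1 for DBA/2J against AKR/J and 3 for DBA/2J against C57BL/6J, where 22.9%, 17.3% and 23.2% of all probe sets were called. Without the 6 spike-in arrays the strain F test gave an adjusted p of 0.109 for Jun 1417409_at and of 0.0882 for Fosl2 1422931_at and called 3 of 11 members. The difference of Jun 1417409_at between C57BL/6J and AKR/J, -0.13 ± 0.04 (adjusted p = 0.0176), was then -0.10 (adjusted p = 0.058). Leaving out replicate 3 of AKR/J control ZT0 alone gave 0.121 for Jun 1417409_at, and leaving out replicate 3 of C57BL/6J control ZT0 gave 0.0741 for Fosl2 1422931_at. The F test of strain by time of day in controls by limma called 0 of 11 members and 0.0222% of all probe sets, with 4 members at an unadjusted p under 0.05. How many of all probe sets reached that unadjusted p was not counted, so the 4 are not read as a trait of the members.

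**Figure D4:**
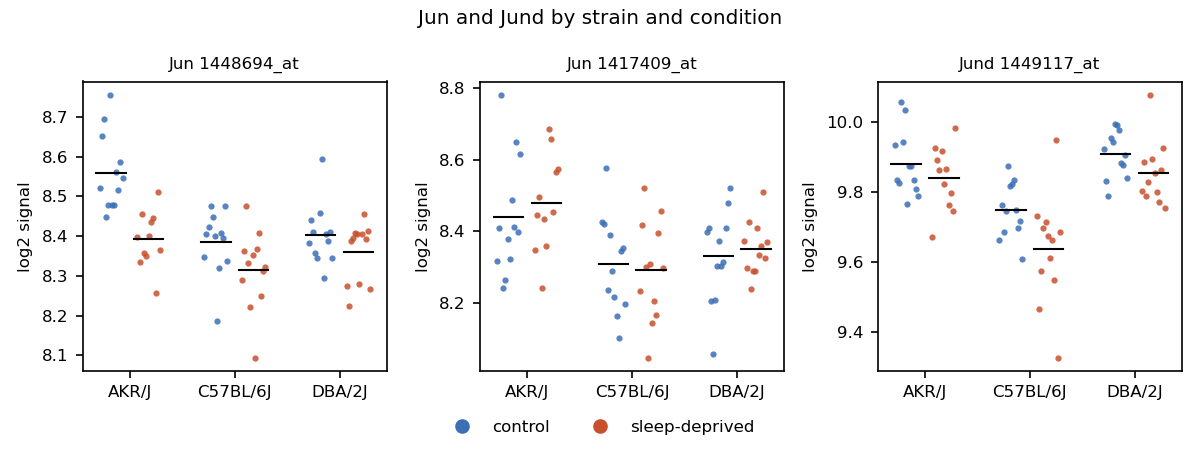
Log2 signal of both Jun probe sets and of Jund 1449117_at on each array, by strain, with controls in blue and sleep-deprived mice in red and the mean of each group as a black line; arrays of all 4 times are spread sideways. Control means of Jun 1448694_at are 8.56 in AKR/J, 8.39 in C57BL/6J and 8.40 in DBA/2J, and the 3 strains overlap in every panel.

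The genes around AP-1 were read on the probe set of highest mean for each gene, by counts and medians. Over all named genes measured this way, of which 9.95% were called higher and 12.2% lower, the median was -0.00. Among 27 measured bZIP genes that pair with or resemble AP-1 subunits, 12 rose and none fell (median 0.06). With the smallest p, Crem, a gene of cyclic AMP response modulators, rose by 0.42 ± 0.03 (adjusted p = 8.59e-17), Ddit3 (CHOP) by 0.14 ± 0.01, Jdp2, which dimerises with Jun, by 0.16 ± 0.02, Atf4 by 0.12 ± 0.01 and Cebpd by 0.25 ± 0.04.

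Of 31 measured genes listed as targets of AP-1, 15 rose and 1 fell (median 0.06). The neurotrophin gene Bdnf rose by 0.57 ± 0.03 (adjusted p = 4.44e-23), the peptide hormone genes Crh and Nts by 0.53 ± 0.03 and 0.33 ± 0.02, Ptgs2, which encodes cyclooxygenase 2, by 0.68 ± 0.05 and the granin gene Scg2 by 0.19 ± 0.02. The member that fell, Cdk5 (-0.08 ± 0.03, adjusted p = 0.0326), a neuronal kinase gene, was named after its value was seen. The lists of partners and targets were drawn up with earlier results of these data known and are no independent evidence of a direction.

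Among 29 measured genes of signalling to Fos and Jun, 5 rose and 5 fell (median -0.01). Srf, the serum response factor that acts on the Fos promoter, rose by 0.13 ± 0.02 on an _s_at probe set, whose probes may hit related transcripts, and the coactivator gene Crebbp by 0.12 ± 0.02. The kinase gene Rps6ka3 rose by 0.14 ± 0.02, while its relative Rps6ka5 fell by 0.19 ± 0.02 (adjusted p = 2.57e-09) and the transcription factor gene Mef2c fell by 0.11 ± 0.02. Of 10 measured genes for the turnover of Fos and Jun RNA or protein, 1 rose, Cop1 (0.16 ± 0.02, adjusted p = 4.94e-08), a ubiquitin ligase gene whose product acts on Jun, and 1 fell, the cullin gene Cul1 (-0.05 ± 0.02, adjusted p = 0.0415).

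Across the 24 group means Fos correlated at 0.90 with Fosl2 1437247_at, 0.83 with Junb, 0.78 with Fosb, 0.44 with Jun 1417409_at, -0.33 with Jun 1448694_at and -0.39 with Jund 1449117_at. Over the 12 control group means these were 0.94, 0.82, 0.64, 0.66, 0.01 and -0.55. The points share arrays, so the coefficients are descriptions and carry no p. Of 34934 probe sets with 1 symbol that were not members, those of Nr4a1 (Pearson r = 0.97), Arc (0.96) and Egr2 (0.95) were most like Fos over the 24 groups, and Arc (0.98), Nr4a1 (0.98) and Irf2bp2 (0.97) over the 12 control groups. Nr4a1 and Egr2 encode transcription factors of the immediate early class, and Arc a synaptic protein.

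For Fosl2 1437247_at the most similar were Homer1 (0.98), which encodes a postsynaptic scaffold, and the chaperone genes Hsph1 (0.98) and Hspa8 (0.97, on an _x_at probe set whose probes may hit related transcripts). Over the controls alone they were Hspa8 (0.98), Sbk1 (0.97) and Nfya (0.97). For Junb they were Mex3c (0.90), Rbm15 (0.89) and Pank1 (0.88), and over the controls Rbm15 (0.93), Pank1 (0.92) and Sf3a1 (0.91). For Fosb they were Nr4a3 (0.86), Hnrnpc (0.85) and Hspa8 (0.85), and over the controls Glyat (0.92), Unc119b (0.88) and Tmem229a (0.88).

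The members with small changes had other neighbours. For Jun 1448694_at these were Lmo4 (0.84), Notch3 (0.81) and Cux2 (0.80), and over the controls Ppp2r2c (0.96), Csf1r (0.96) and Sema3d (0.95). For Jund 1449117_at they were Lgi2 (0.92), Coa8 (0.92) and Dzip1 (0.92), and over the controls Ntrk3 (0.96), 4930570G19Rik (0.95) and Pdpr (0.94). For Fosl1 1417487_at the values were lower over the 24 groups, with Meaf6 (0.79), Eif2b2 (0.77) and Pcsk7 (0.75), and over the controls Eif2b2 (0.90), Aup1 (0.89) and Zdhhc6 (0.88). Each is among the highest of 34934 coefficients and so a selected value. Probe sets of Glyat, Notch3 and Csf1r were of the _s_at kind and those of Unc119b, Ppp2r2c, Eif2b2 and Zdhhc6 of the _x_at kind.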

How the data were processed

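The deposited series matrix holds log2 signals. RMA is the tool that the submitters' processing notes name for them, with version and settings not given in the sources used here. Arrays were grouped by strain, condition and time from the labels. Of 45101 probe sets 64 controls were left out. The platform annotation gave 1 symbol to 34945 probe sets, several to 932 and none to 9160, and 34741 were matched by Entrez ID to RefSeq names of assembly GRCm38.p6, which also gave the promoters.

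With limma 3.58.1 (R 4.3.3) 1 mean per group was fitted over the 71 arrays, which left 1 shared spread (47 residual degrees of freedom), with two-sided tests, and F tests for interactions and for time and strain. Probe sets of a gene were compared by their difference within each array. The fit was tested on simulated data. Arrays of a group are pools of 3 mice, so p-values measure the spread between pools, and the number of arrays limits the precision.

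Named were all member probe sets, up to 5 called genes per list with the smallest p, and the 3 genes most like each member by Pearson r. The members and gene lists were chosen with earlier results of these data known. Alternatives were other normalization, filters and eBayes settings, array weights, a replicate block, and the arrays low in spike-in signal as a block or left out. Further ones were pituitary hormone level as a covariate, only the groups compared, gene means and leaving out each array.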

Additional observations from a re-analysis of the deposited data

Results flagged for a closer look

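The difference of the sleep deprivation response between times of sacrifice passed its own F test for 3 members: Fos (limma adjusted p = 2.12e-10, responses from 0.21 at ZT18 to 1.38 at ZT6), Fosl2 1437247_at (1.81e-09, from 0.35 at ZT18 to 1.22 at ZT12) and Junb (0.0136, from 0.08 at ZT0 to 0.46 at ZT6).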

How the results depend on the processing

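No result changed direction while called. Centring each array on its median, or adding a replicate block, changed none of 466 results on single probe sets; with the replicate block the overall comparison still called 4 members higher and 2 lower. Of 35 same-numbered pairs 6 correlated above 0.1 (range -0.274 to 0.602), and in 1 of 12 combinations of strain and time every pair did. This was C57BL/6J at ZT0, with 0.228 to 0.602, where 1 of the 3 pairs lies among the 6 arrays low in spike-in signal. A replicate block within C57BL/6J at ZT0, added after seeing the data, changed no call there: Fosl2 1437247_at kept its call (adjusted p = 0.00542) and Junb, at -0.32, was not called (adjusted p = 0.276). Quantile normalization changed 4 results (1 lost, 3 gained), trend and robust eBayes 2 (gained), array weights 13 (1 lost, 12 gained), the filter on level 13 of 296 (gained), the spike-in block 7 (gained), the pituitary covariate 5 (2 lost, 3 gained), only the groups compared 11 of 220 (9 lost, 2 gained), and gene means 10 of 294 (5 lost, 5 gained). Without the 6 spike-in arrays 12 calls were lost and 4 gained. The count for sleep-deprived ZT6 against control ZT18 went from 1 to 2 members with the filter on level, array weights, the spike-in block and without the 6 arrays, and that for time of day in sleep-deprived mice from 1 to 2 with the spike-in block and without the 6 arrays. Strain in controls went from 5 to 3 without the 6 arrays, and the count in each strain at each time from 20 to 13 when only the groups compared entered the fit, which leaves fewer arrays to estimate the spread. Leaving out each array in turn moved the overall Fos response between 0.78 and 0.81, Fosl2 1437247_at between 0.82 and 0.85, Fosb between 0.29 and 0.32, Junb between 0.26 and 0.28, Jun 1448694_at between -0.10 and -0.08 and Jund 1449117_at between -0.08 and -0.05. Signal close to the low end of the arrays limits Fosb, Fosl1 and Jund 1440265_at, and 2 or 3 pools per group limit the comparisons within a strain and time.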
